A study of Homo sapiens with 6 samples.

Results

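The CXC chemokine cluster of human chromosome band 4q13 was examined in DAMI cells, a human leukaemia line labelled MPN/AML, with and without silencing of HMGA1, a chromatin protein whose AT-hooks contact AT-rich DNA. The members are 9 genes, in chromosome order CXCL8, CXCL6, PF4V1, CXCL1, PF4, PPBP, CXCL5, CXCL3 and CXCL2. Every ATAC-seq peak that overlapped hg19 chromosome 4 from 74550000 to 75000000, a window of 450 kb set by position, was taken. That gave 15 of the 127153 control peaks and 17 of the 112610 shHMGA1 peaks. Accessibility was measured by Tn5 tagmentation of 50000 cells per sample. The 3 control samples had been infected with a control lentivirus and the 3 shHMGA1 samples with a lentivirus carrying a short hairpin RNA against HMGA1, so all 6 samples carried a virus. The peaks were deposited as 1 list per group with no values per sample. With 1 list on each side, differences are given without a replicate check, read depth is unknown, and no test between groups was possible. Neither the identity of the line nor the degree of silencing was checked, and whether cells of the SET-2 line, which the series text also names, entered the lists is not given in the sources used here.

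CXC chemokines are small secreted proteins that bind heparan sulphate and guide leukocytes through G protein-coupled receptors. CXCL8 (interleukin-8), CXCL1, CXCL2, CXCL3, CXCL5 and CXCL6 carry an ELR motif, act on the receptors CXCR1 or CXCR2 and attract neutrophils, and their transcription is a classic target of NF-κB. PF4 (platelet factor 4) and PPBP, the precursor of β-thromboglobulin and NAP-2, are made by megakaryocytes and stored in platelet α-granules, and PF4V1 is a near copy of PF4. The rule gave an approximate hg19 position, printed to the kb, for 5 members. These were CXCL8 near 74.606 Mb, CXCL1 near 74.735 Mb, PF4 near 74.847 Mb, PPBP near 74.853 Mb and CXCL2 near 74.963 Mb. CXCL6 and PF4V1 lie between CXCL8 and CXCL1, and CXCL5 and CXCL3 between PPBP and CXCL2. These 4 genes were placed by interval, and otherwise only by the spacing of gene starts on GRCh38.p14. No exon or intron was assigned, because no hg19 annotation was used. The receptor genes were not analysed here for the same reason.

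The promoters of the cluster fall into sequence families, and 5 are shown because peaks of both lists lay near CXCL8 and CXCL2 and none near CXCL1 or PPBP, while CXCL3 is the close relative of CXCL1 and CXCL2. Each is the 150 bases before the gene start, 5′ to 3′ on the gene's strand, from RefSeq on GRCh38.p14. Capitals mark matches to the κB motif or its core GGAATTTCC, and to the TATA box TATAAA. Their GRCh38 positions, in the order printed, are chr4:73740419-73740568 (+), chr4:73869243-73869392 (+), chr4:74099196-74099345 (-), chr4:74038690-74038839 (-) and chr4:73988191-73988340 (-). They were not converted to hg19, and only the spacing between gene starts is set beside peak positions below.
CXCL8: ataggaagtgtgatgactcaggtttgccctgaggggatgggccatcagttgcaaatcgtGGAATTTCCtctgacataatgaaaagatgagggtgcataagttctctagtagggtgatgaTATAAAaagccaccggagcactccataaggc
CXCL1: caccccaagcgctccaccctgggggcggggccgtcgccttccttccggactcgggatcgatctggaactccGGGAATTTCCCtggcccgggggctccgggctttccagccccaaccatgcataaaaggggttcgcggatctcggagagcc
CXCL2: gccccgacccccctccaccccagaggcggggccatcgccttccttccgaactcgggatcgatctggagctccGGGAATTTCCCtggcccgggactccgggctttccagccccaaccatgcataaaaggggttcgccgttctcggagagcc
CXCL3: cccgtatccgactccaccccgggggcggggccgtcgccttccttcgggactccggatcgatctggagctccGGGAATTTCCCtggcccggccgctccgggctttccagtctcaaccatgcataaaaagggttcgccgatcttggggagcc
PPBP: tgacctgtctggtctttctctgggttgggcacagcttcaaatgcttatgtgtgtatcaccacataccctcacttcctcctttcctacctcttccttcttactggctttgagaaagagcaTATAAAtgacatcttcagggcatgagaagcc

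Peaks were gathered at the CXCL2 end of the cluster and absent from its middle. No peak of either list lay between 74713906 and 74903804, a stretch of 189.9 kb that contains the given positions of CXCL1, PF4 and PPBP. On GRCh38.p14 the bases before the start were at 73853146-73853295 for PF4V1 and 73869243-73869392 for CXCL1. They were at 73988191-73988340 for PPBP and 73998678-73998827 for CXCL5. With that spacing from CXCL1 and PPBP on hg19, the starts of PF4V1 and CXCL5 also fall in the stretch. Their hg19 positions themselves were not checked. Among 138810 peak-free intervals on chromosomes 1 to 22 and X, 1.05% were at least as long and the median was 5.99 kb. Such long intervals are not rare when counted by bases: they held 20.8% of all peak-free bases. On chromosome 4, 66 of 20434 intervals reached this length. That count includes denser parts of the chromosome: control peaks numbered 98.6 per Mb outside the window and 25.6 per Mb in the rest of band 4q13.3.

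**Figure D1:**
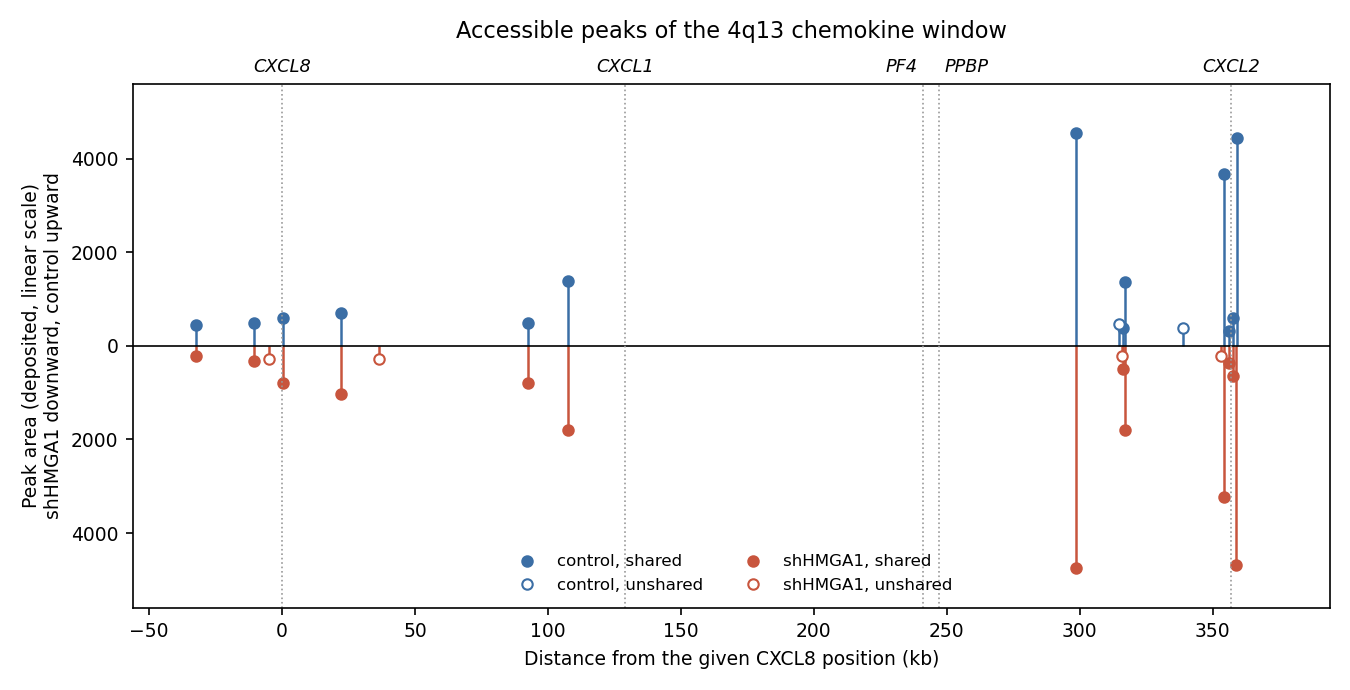
Area of each peak in the window (vertical axis, the authors' deposited value, linear scale; control upward, shHMGA1 downward) against its distance in kb from the given CXCL8 position; filled points are shared by at least 1 bp, open points are unshared, and dotted lines mark the 5 given gene positions. The 3 sites of largest area stand to the right, and the stretch with CXCL1, PF4 and PPBP is empty in both lists.

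The platelet genes PF4 and PPBP had no peak nearby in either list. PF4V1 has no given position, and its distance to a peak was not measured. The nearest peak to PF4 began 56.8 kb to its right in both lists, and the left-hand distances were 133.3 kb for control and 133.1 kb for shHMGA1. For PPBP the nearest peak was 50.8 kb away in both. PF4 and PPBP are defining genes of megakaryocytes, and at their positions neither list held a called site. The files hold no reads, so a signal below the authors' calling threshold cannot be told apart from no signal. Read mappability was not tested.

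Of the neutrophil chemokines with a given position, CXCL8 and CXCL2 had peaks within 2 kb in both lists and CXCL1 had none. The peak nearest to CXCL1 lay 21.3 kb away in control and 21.1 kb away in shHMGA1. So 2 of 5 positioned genes had a peak in both lists and 3 had one in neither. None had a peak in 1 list alone, and the counts were the same with distances of 1 kb and 5 kb. CXCL1 was without a peak although the 250 bases before its start are 68.0% identical to those of CXCL2, with a run of 42 identical bases. How the authors treated reads that match several copies is not given in the sources used here, and its part in the missing CXCL1 peak was not tested.

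At CXCL8, the gene of interleukin-8, 1 narrow peak lay 0.116 kb to the right of the given position in control, from 74606116 to 74606464, and 0.117 kb to the right in shHMGA1, from 74606117 to 74606456. It was 349 bp wide in control and 340 bp wide in shHMGA1, with summits 1 bp apart. The site was nearly the same in both lists in place and width. Its area, the authors' value for the area under the significance curve of a peak, was 595 in control and 791 in shHMGA1, a ratio of 1.33. Its summit −log10 p was 5.74 and 5.81, above 58.4% of control peaks and 59.6% of shHMGA1 peaks, so it was a site of middling significance.

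To the left of CXCL8, where the lncRNA genes UMLILO and INKILN are its RefSeq neighbours, both shared sites were narrower and of smaller area in shHMGA1. The site from 74573730 to 74573905 in control measured 176 bp and 152 bp, and its area was 445 in control and 213 in shHMGA1. The site from 74595371 to 74595551 measured 181 bp and 159 bp, with areas of 487 and 323. Their log2 area ratios, -1.07 and -0.59, were the 2 lowest of the window. A weak shHMGA1-only peak stood between that site and CXCL8, from 74600960 to 74601227, 4.77 kb left of the given CXCL8 position. It was 268 bp wide with an area of 279, 4889 bp from the nearest control peak.

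Between CXCL8 and CXCL1, the 129 kb that also hold CXCL6 and PF4V1, the shared sites beyond CXCL8 were all wider and of larger area in shHMGA1. The site from 74628144 to 74628403 in control was 260 bp wide in control and 375 bp in shHMGA1, with areas of 711 and 1032. The site from 74698359 to 74698701 measured 343 bp and 589 bp, with areas of 493 and 802. Its width ratio of 1.72 was the largest in the window. The site from 74713104 to 74713699, the last before the empty stretch, measured 596 bp and 830 bp, with areas of 1383 and 1788. At all 3 sites the shHMGA1 peak covered at least 99.7% of the control peak, so the wider peak lay over the same place. The interval also held an shHMGA1-only peak from 74642085 to 74642479, with an area of 268 and a summit −log10 p of 3.44, lower than all but 2.27% of its list. Whether any of these sites belongs to CXCL6 or PF4V1 was not assigned.

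In the interval from PPBP to CXCL2, which also holds CXCL5 and CXCL3, the leftmost site was the most significant of the window. It began 50.8 kb to the right of the given PPBP position in both lists. It ran from 74903809 to 74904995 in control and from 74903805 to 74905011 in shHMGA1, 1187 bp and 1207 bp wide. The area was 4549 and 4749 and the summit −log10 p 12.2 and 12.1, with both summits on the same base. It stood above 93.2% of peaks in each list, and the lists hardly differed there. On GRCh38.p14 the 150 bases before the start were at 73988191-73988340 for PPBP, 73998678-73998827 for CXCL5 and 74038690-74038839 for CXCL3. With that spacing on hg19, the CXCL3 start falls close to this site and the CXCL5 start much nearer to PPBP. The hg19 position of CXCL3 itself was not checked.

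Further right, 3 peaks of each list lay within 2.82 kb. Shared sites from 74922337 to 74922518 and from 74922635 to 74923189 in control had areas of 376 and 1369 there, and of 488 and 1790 in shHMGA1. Their widths were 182 bp and 555 bp in control against 177 bp and 586 bp in shHMGA1. Each list had 1 unshared peak beside them: control from 74920410 to 74920759 (350 bp, area 464) and shHMGA1 from 74921933 to 74922072 (140 bp, area 214). The shHMGA1 peak was only 265 bp from a control peak. The other control-only peak of the window stood alone from 74944879 to 74945097, with a width of 219 bp, an area of 389 and no shHMGA1 peak within 14035 bp.

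CXCL2, also called MIP-2α, a ligand of CXCR2, lay in the group with the most peaks and the most covered bases. Between 74959132 and 74965565, a span of 6.43 kb, 4 control and 5 shHMGA1 peaks made up 42.7% and 40.3% of all bases covered by peaks in the window. The site to the left, from 74959592 to 74960940 in control, was the widest of the window at 1349 bp and 1579 bp. Its area was 3680 in control and 3227 in shHMGA1, and its summits were 2 bp apart. It was 1 of only 3 shared sites with a smaller area in shHMGA1, and the only one of these that was also wider there.

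Nearer to the given CXCL2 position lay 2 shared sites of smaller area. That position is approximate, and which end of the gene it marks is not given. CXCL2 is on the minus strand, so its start is its right-hand end. On GRCh38.p14 the bases before the CXCL8 start ended at 73740568, and those before the CXCL2 start began at 74099196. With that spacing on hg19, and the given CXCL8 position as its start, the CXCL2 start falls nearest the right-hand site described below. The CXCL2 start itself was not placed in hg19. The site from 74961962 to 74962313 had widths of 352 bp and 385 bp and areas of 316 and 355. The site from 74963371 to 74963738 had widths of 368 bp and 441 bp and areas of 595 and 647. Both were slightly wider and of slightly larger area in shHMGA1.

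The right-hand CXCL2 site differed in shape between the lists. It ran from 74964354 to 74965565 in control and from 74964351 to 74965330 in shHMGA1, so the left edge kept its place to 3 bp and the width was 1212 bp against 980 bp. The area was nonetheless 4451 in control and 4685 in shHMGA1, or 3.67 and 4.78 per base. The summit −log10 p was 11.0 and 12.0, and the shHMGA1 summit lay 274 bp to the left of the control summit. At the other 12 shared sites the summits were 0 to 50 bp apart. A further shHMGA1-only peak, from 74959132 to 74959272 (141 bp, area 219), lay 320 bp from a control peak.

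**Figure D2:**
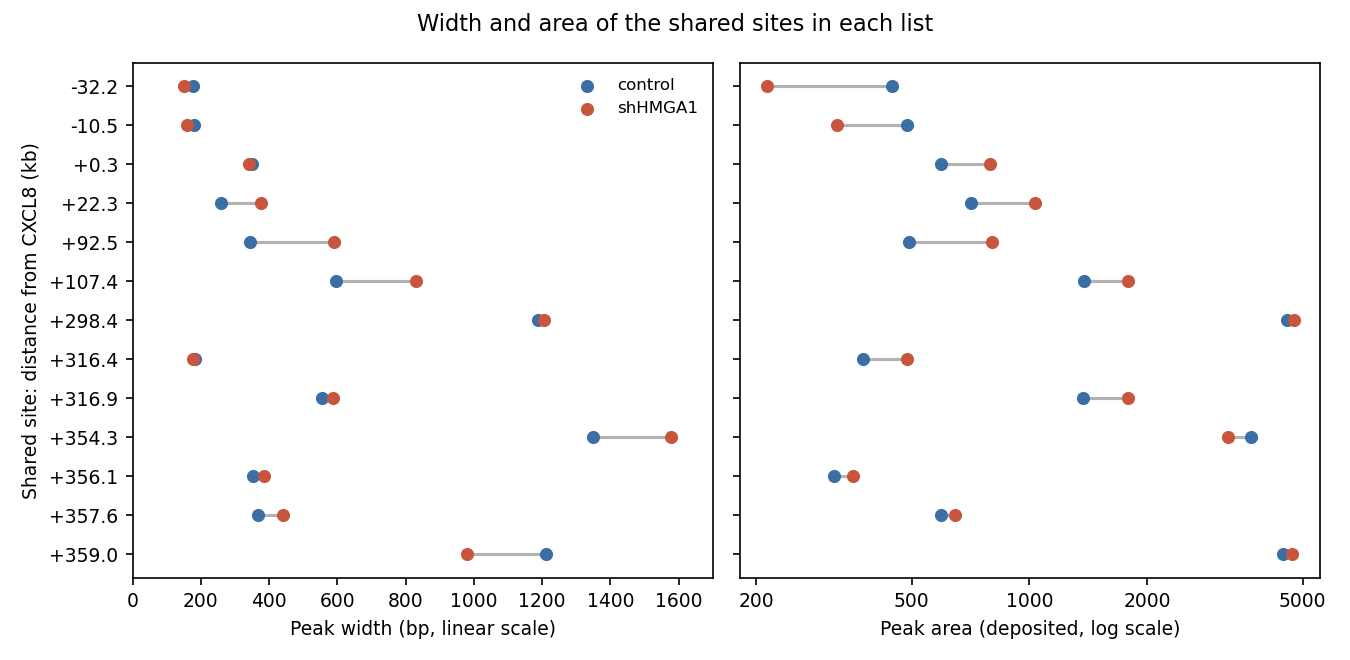
Width in bp (left, linear scale) and deposited area (right, log scale) of the 13 shared sites in the control and shHMGA1 lists, 1 row per site, ordered by distance in kb from the given CXCL8 position. The 3 sites from +22.3 to +107.4 kb are wider and of larger area in shHMGA1, and the 2 sites left of CXCL8 have smaller areas there.

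Over the window as a whole, 13 control peaks each overlapped exactly 1 shHMGA1 peak by at least 1 bp. Control-only peaks numbered 2 of 15, against a background of 24.9% unshared among all control peaks. The shared percentage was 86.7% (exact 95% interval 59.5 to 98.3). The shHMGA1-only peaks numbered 4 of 17, against 14.8% of all shHMGA1 peaks, and 76.5% were shared (50.1 to 93.2). Both intervals include the values of the whole lists, 75.1% and 85.2%, so with so few peaks no departure from the background was detectable. The 2 control-only and the 4 shHMGA1-only peaks all had summits below the median of their own list. Exact intervals here cover counting error only.

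Of the 13 shared sites 8 were wider in shHMGA1, 61.5% (exact interval 31.6 to 86.1), against 44.8% of the 83581 pairs of peaks that overlapped 1 to 1 over the whole lists. The median log2 width ratio was 0.08 in the window and -0.03 over all pairs. A difference of at least 1.5-fold was seen at 1 site in the direction wider in shHMGA1, against 9.8% of all pairs. It was seen at 0 of 13 in the direction narrower, which allows up to 23.1%, against 13.8% of all pairs. With 13 sites, no departure of width from the background was detectable.

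Area stood further from the background. In 10 of the 13 sites the area was larger in shHMGA1, 76.9% (exact interval 46.2 to 95.0), against 37.2% of all pairs. Most of these differences were small. The area was at least 1.5-fold larger in shHMGA1 at 1 site and at least 1.5-fold smaller at 2. Over all 83581 pairs these counts were 7712 and 16873. The median log2 area ratio was 0.16 in the window and -0.14 over all pairs, whose quartiles were -0.48 and 0.16. Area per base was larger in shHMGA1 at 7 of 13 sites, against 40.7% of all pairs. The area depends on read depth and on how the samples of a group were combined, and neighbouring sites are not independent. Larger areas were also frequent in the next 450 kb to the right, at 10 of 16 pairs, with a median log2 area ratio of 0.07. They were fewer in the 450 kb to the left, at 4 of 9 pairs, with a median of -0.04. Without a test the area pattern cannot be called particular to the chemokine genes.

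The window held 33.3 control and 37.8 shHMGA1 peaks per Mb, a ratio of 1.13, whereas chromosomes 1 to 22 and X held 41.7 and 37.0 per Mb, a ratio of 0.886. The flank to the left had 9 and 11 peaks and the flank to the right 19 and 16. In the rest of band 4q13.3 the density was 25.6 and 23.4 per Mb. More shHMGA1 than control peaks were seen in 17% of the 4238 tiles of 450 kb with at least 10 control peaks, and the interval of the window's own ratio, 0.532 to 2.44, includes the genome-wide value. The median peak width of the window was 350 bp in control and 385 bp in shHMGA1, below the 525 bp and 539 bp of the whole lists. The median area was close to theirs, 595 against 602 in control and 647 against 616 in shHMGA1. Bases in peaks of both lists made up 70.8% of the bases in either, against 63.0% over the whole lists.

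**Figure D3:**
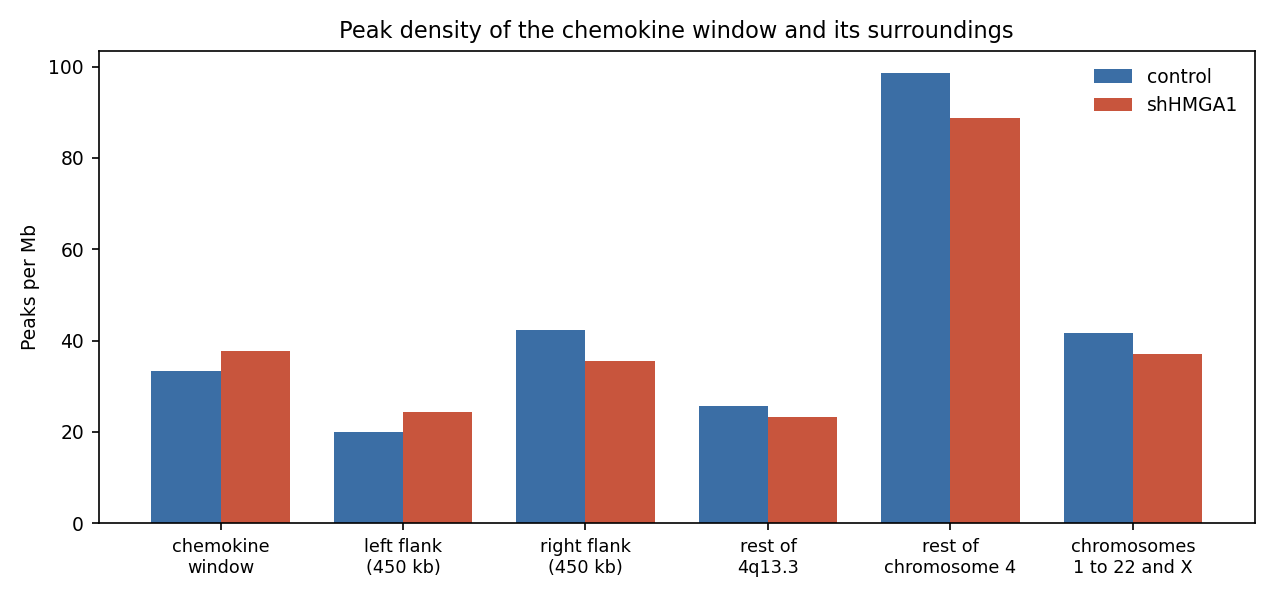
Peaks per Mb (bars from 0) in the chemokine window, the 450 kb on each side, the rest of band 4q13.3, the rest of chromosome 4 and chromosomes 1 to 22 and X, for the control and shHMGA1 lists. The window and its left flank hold more shHMGA1 than control peaks, and the other regions hold fewer; the rest of chromosome 4 stands at 98.6 and 88.8 per Mb.

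The letters before the gene starts were compared with those of 34796 RefSeq promoters, over the same 250 bases and on both strands. Promoters were found for 8 of the 9 members, all but PF4. CXCL5 and CXCL6 were 85.3% identical, with a run of 45 identical bases. CXCL1 was 81.4% identical to CXCL3 and 68.0% to CXCL2, and CXCL2 was 73.3% identical to CXCL3; CXCL1, CXCL2 and CXCL3 shared a run of 23 bases that holds the κB match. Every other pair lay between 40.5% and 53.1%. The κB motif was found in CXCL1, CXCL2, CXCL3, CXCL5 and CXCL6 (5 of 8, against 9.96% of all promoters). The core GGAATTTCC, picked after these sequences were seen, was found in those 5 and in CXCL8, against 0.417% of all promoters. It began 91 bases before the start in CXCL8, 90 in CXCL5, 89 in CXCL6, 78 in CXCL1 and CXCL3, and 77 in CXCL2, and the platelet genes PPBP and PF4V1 lacked it. Within each of these families, CXCL1, CXCL2 and CXCL3, and CXCL5 and CXCL6, the promoters are close copies, so their matches are not independent; CXCL8 was 40.5 to 45.0% identical to the other neutrophil chemokines.

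Motifs of factors active in megakaryocytes were also sought. A GATA match (AGATAA or TGATAA) was found in CXCL5, CXCL6, CXCL8 and PPBP, 4 of 8 against 14.6% of all promoters. Those of CXCL5 and CXCL6, which are close copies and not independent, began 33 and 32 bases before the start. That is about where TATAAA began in CXCL8 and PPBP, and what these letters do there was not tested. The GATA matches of CXCL8 and PPBP lie outside the 150 bases printed. An ETS match (AGGAAG or CGGAAG) was found in all but CXCL6, against 40.8%. The TATA box TATAAA was found in CXCL8, PPBP and PF4V1, against 10.8%, and began 31 bases before the start in CXCL8 and PPBP and 221 bases before it in PF4V1. The AP-1 motif TGANTCA was found in CXCL8 alone, against 6.59%, and the C/EBP motif TTGCNNAA in CXCL2 and PPBP, against 9.05%. In base composition, CXCL8 was the richest in A and T at 62.4%, above 90.4% of all promoters, and PPBP followed with 56.4%. CXCL1, CXCL2 and CXCL3 had 34.4, 35.6 and 37.2%, under the median of 42%. CXCL8 and CXCL2, which both had peaks in both lists, thus stood at opposite sides of that median. A match describes letters only and is no evidence of binding.

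**Figure D4:**
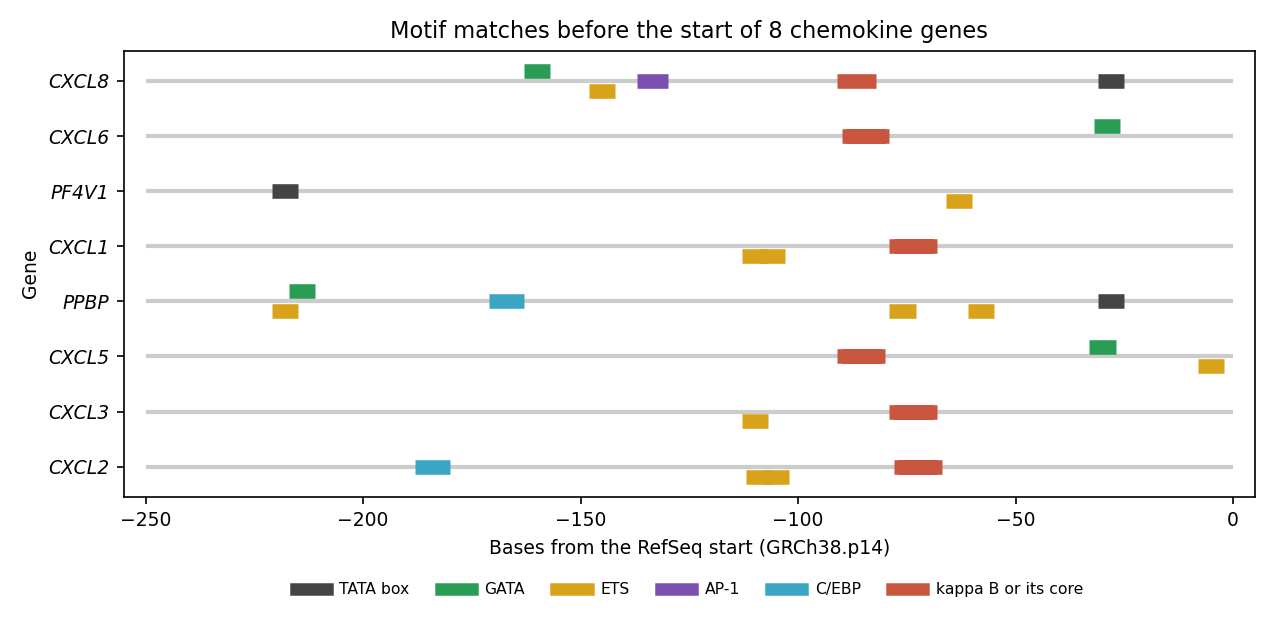
Matches to 6 kinds of motif (coloured blocks) in the 250 bases before the RefSeq start of 8 members, 1 row per gene in chromosome order, with bases from the start on the horizontal axis. The κB block stands between 68 and 91 bases before the start in 6 genes, and none is seen in PPBP or PF4V1.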

How the data were processed

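ATAC-seq was done on 3 control and 3 shHMGA1 samples. Per the submitters' processing notes, the authors called peaks with Genrich on hg19; its version and settings, the aligner and how samples were pooled are not stated in these sources. Groups were read from the names of the lists. Column 7, a deposited signal, is the peak's area under its significance curve, above 200.0 in both lists. The deposited column 8 is an unadjusted −log10 p of the summit, and the q-value column is −1 throughout. The deposited score is 1000 times area over width, rounded and capped at 1000, in 127153 of 127153 control and 112608 of 112610 shHMGA1 rows, and was used only for that check. Other deposited values are positions; those printed count from 1.

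Peaks overlapping by 1 bp were called shared; overlap and pairing were tested on simulated lists. Intervals are exact Clopper-Pearson, and 3 counts set the limit printed beside a 0. The named peaks are those within 2 kb of a given gene position, the widest and most significant of the window, and unshared peaks above their list median, of which there were none; the other peaks of the window, the groups of peaks within 10 kb, the neighbouring tiles and the area comparison were chosen after their values were seen. Members and lists were chosen with earlier results of these data known. RefSeq genes (GRCh38.p14) gave names and order, and promoter positions on that build were used for spacing only, after the peaks were seen. The hg19 bands came from the R package circlize. Planned protein features and receptor genes were not run. Analyses used Python 3.11.15, numpy 2.4.6, pandas 2.3.3, scipy 1.17.1, biopython 1.88 and matplotlib 3.10.9. The alternatives changed the overlap rule, threshold, list length, merging, window and gene distance.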

Additional observations from a re-analysis of the deposited data

How the results depend on the processing

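Of 60 recomputed values, 50 kept within 1.5 times the count or within the interval of the reported value. With peaks within 500 bp counted as shared, 2 peaks were shHMGA1-only. At a summit threshold of the joined median (5.24) the window held 10 shHMGA1 peaks and 11 control peaks, with 2 control-only and 1 shHMGA1-only. All of these unshared peaks were at shared sites whose partner fell below the threshold. With the 56305 most significant peaks of each list it held 10 of each list, with 1 control-only and 1 shHMGA1-only peak. With the threshold on the counted list only, an alternative chosen after seeing the data, 100% of the control and of the shHMGA1 peaks were shared and 0 were unshared, since no unshared peak reached the threshold. The ratio of peak numbers was 0.909 at the threshold, so the larger number of shHMGA1 peaks did not hold there. Peaks of both lists at CXCL8 and CXCL2, and at none of CXCL1, PF4 and PPBP, were seen under each distance and threshold tried. No paired analysis was possible because the lists carry no values of single samples, nor could a replicate be omitted. Unknown read depth limits every statement on weak or absent peaks.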
